A study of Mus musculus with 2 samples.

Results

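Proliferative retinal endothelial cells were those cells of the developing mouse retinal vasculature that the study placed in its Proliferative cluster, named Primordial-Proliferative in its source data. The study's label of each cell barcode chose them, and no gene level was used here to select a cell. Those whose labels are held here numbered 212 of 1998 labelled cells, 198 in the P6 library and 14 in the P15 library, among 4125 barcodes in all. The P15 labels are held only in part, and the study counted more cells both in this cluster and in all. Both libraries held retinal cells of wild-type C57BL/6 mice, 1 library from postnatal day 6 (P6) and 1 from postnatal day 15 (P15). The cells had been sorted as CD31+CD45-, that is, with the platelet endothelial adhesion molecule on their surface and without the leukocyte common antigen. Each captured mRNA carried a unique molecular identifier (UMI) added in its droplet, so amplified copies were counted once. The P6 library held 13958124 UMIs over 1984 barcodes, of which 1560 had a label here, and the P15 library 11589641 UMIs over 2141 barcodes, of which 438 had one. How many pups entered a library is not given in the sources used here. With 1 library per age no difference could be tested across animals, and every interval below is a 95% interval that covers counting error only.

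A dividing cell first licenses its replication origins and copies its DNA in S phase, then builds a spindle, condenses its chromosomes and separates them in mitosis. Genes for DNA copying are largely switched on by E2F transcription factors as the cell leaves G1. Genes for mitosis are held down in G1 by the DREAM complex and come on later, through CCAAT and CHR elements in their promoters. In the growing retinal plexus endothelial division supplies cells behind the sprouting front, and it ceases as the vessels mature.

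The promoters of 5 genes of the cluster are shown first, because the mitotic genes that mark it hold letters that its labels did not use. Of each, the 250 bases before the RefSeq start on GRCm38.p6 are printed 5′ to 3′ on the strand of the gene, and capitals mark 3 motifs searched on both strands. These are CCAAT, which reads as ATTGG from the other strand, the CHR letters TTTGAA, which read as TTCAAA from the other strand, with the variant TTCGAA that reads alike from both, and 2 forms of the E2F letters. Of the E2F forms TTTGGCGC reads as GCGCCAAA from the other strand, and TTTCCCGC reads as GCGGGAAA. *Mki67*, *Top2a* and *Hmmr* are markers of the cluster, *Ccnb2* is the mitotic cyclin B2, and *Mcm5* is a subunit of the replicative helicase and stands for the S phase genes.
Mki67: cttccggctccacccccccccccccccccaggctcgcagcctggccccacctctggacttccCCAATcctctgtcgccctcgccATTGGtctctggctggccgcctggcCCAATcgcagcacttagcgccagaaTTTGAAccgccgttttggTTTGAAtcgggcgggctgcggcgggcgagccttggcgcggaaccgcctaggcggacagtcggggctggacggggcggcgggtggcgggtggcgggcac
Top2a: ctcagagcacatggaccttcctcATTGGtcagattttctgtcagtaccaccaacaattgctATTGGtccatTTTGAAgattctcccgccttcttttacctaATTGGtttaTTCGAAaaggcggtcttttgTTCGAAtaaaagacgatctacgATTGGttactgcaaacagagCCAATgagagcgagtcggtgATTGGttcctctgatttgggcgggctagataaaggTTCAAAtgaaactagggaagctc
Hmmr: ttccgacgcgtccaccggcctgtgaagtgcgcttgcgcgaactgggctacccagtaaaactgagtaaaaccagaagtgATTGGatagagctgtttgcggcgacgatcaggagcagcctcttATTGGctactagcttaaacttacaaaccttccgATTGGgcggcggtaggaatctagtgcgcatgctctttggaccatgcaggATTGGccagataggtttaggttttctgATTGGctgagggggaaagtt
Ccnb2: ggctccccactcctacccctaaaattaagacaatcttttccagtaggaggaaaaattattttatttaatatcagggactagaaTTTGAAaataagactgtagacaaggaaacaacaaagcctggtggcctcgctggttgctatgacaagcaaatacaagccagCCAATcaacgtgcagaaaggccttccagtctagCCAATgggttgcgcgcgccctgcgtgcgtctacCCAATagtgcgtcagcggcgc
Mcm5: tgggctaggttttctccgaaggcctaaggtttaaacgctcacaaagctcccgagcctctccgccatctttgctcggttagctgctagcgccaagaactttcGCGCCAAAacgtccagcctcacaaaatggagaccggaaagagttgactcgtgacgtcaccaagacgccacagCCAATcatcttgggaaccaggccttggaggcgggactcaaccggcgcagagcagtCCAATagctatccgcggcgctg
These windows are chr7:135716380-135716629 for *Mki67*, chr11:99024190-99024439 for *Top2a*, chr11:40733438-40733687 for *Hmmr* and chr9:70421555-70421804 for *Ccnb2*, all on the minus strand, and chr8:75109259-75109508 on the plus strand for *Mcm5*. The *Mki67* window holds CHR runs that begin 116 and 98 bases before the start, and the nearest CCAAT run begins 141 bases before it. The *Top2a* window holds 6 CCAAT and 4 CHR runs, and that of *Ccnb2* holds 3 and 1. The *Hmmr* window holds 5 CCAAT runs, the nearest 20 bases before the start, and no CHR run. The *Mcm5* window holds an E2F run that begins 149 bases before the start. In *Cenpe*, the other marker, the window holds 1 CCAAT run, 12 bases before the start.

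Of the 54 genes in the G2/M list 47 had a promoter in the RefSeq table, and 22 of these (46.8%) held a CHR run. The share was 19.6% among all 27025 genes of the table and 14.4% among those that reached 50 UMIs over labelled P6 cells. A CCAAT run was found in 76.6% of the G2/M genes, 71% of the S phase genes and 37.5% of all genes, and both kinds together in 40.4% of the G2/M genes and 7.0% of all genes. In smaller sets a CHR run was in 30% of 10 pan-endothelial genes, 33.3% of 15 origin licensing and helicase genes and 35% of 20 matched genes among the 25 with the largest P6 ratios given below. Both kinds were in 20%, 26.7% and 20% of these. Of the S phase list 31 of 43 genes matched, and 8 of them (25.8%) held an E2F run, against 1.51% of all genes and 3.33% of those that reached 50 UMIs. Counted by promoter, 17.1% of all 32851 windows held a CHR run, 33.9% a CCAAT run and 1.3% an E2F run. These shares count letters and do not show that a factor was bound.

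The cells are known by *Mki67*, a coat protein of mitotic chromosomes (chr7:135689784-135716361 on GRCm38), *Top2a*, the topoisomerase that untangles copied DNA (chr11:98992943-99024189), *Cenpe*, a kinetochore motor (chr3:135212537-135273611), and *Hmmr*, a spindle protein (chr11:40701395-40733422). Levels are given as UMIs per 1000000 UMIs of the summed cells (CPM), and ratios are of CPM. At P6 *Mki67* stood at 122 CPM in Proliferative cells and 16.1 CPM in the 1362 other labelled cells, a ratio of 7.58 (6.05 to 9.53). *Top2a* was at 561 CPM against 66.3 CPM, a ratio of 8.47 (7.61 to 9.44). *Cenpe* was at 126 CPM against 8.54 CPM, a ratio of 14.8 (11.2 to 19.7). All 4 were higher in the cluster than in the rest of the P6 library, *Hmmr* with the largest ratio at 86 CPM against 5.4 CPM, a ratio of 15.9 (11.3 to 22.9). Since the study grouped cells by their expression, such ratios describe the cluster and are no test of it.

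At P15 the 4 markers together reached 687 CPM in the 14 Proliferative cells, from 75 UMIs, and 2.95 CPM in the 424 other labelled cells, from 6 UMIs. *Cenpe* had 10 UMIs in the Proliferative cells and 0 in the others, and was at least 62-fold higher when the 0 is bounded by 3 counts over the group. *Hmmr* had 14 UMIs against 0 and was at least 86.9-fold higher on the same bound. *Mki67* had 12 against 1, and *Top2a* 39 against 5. Outside the cluster the markers were nearly silent at P15, while at P6 they were low but present.

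**Figure D1:**
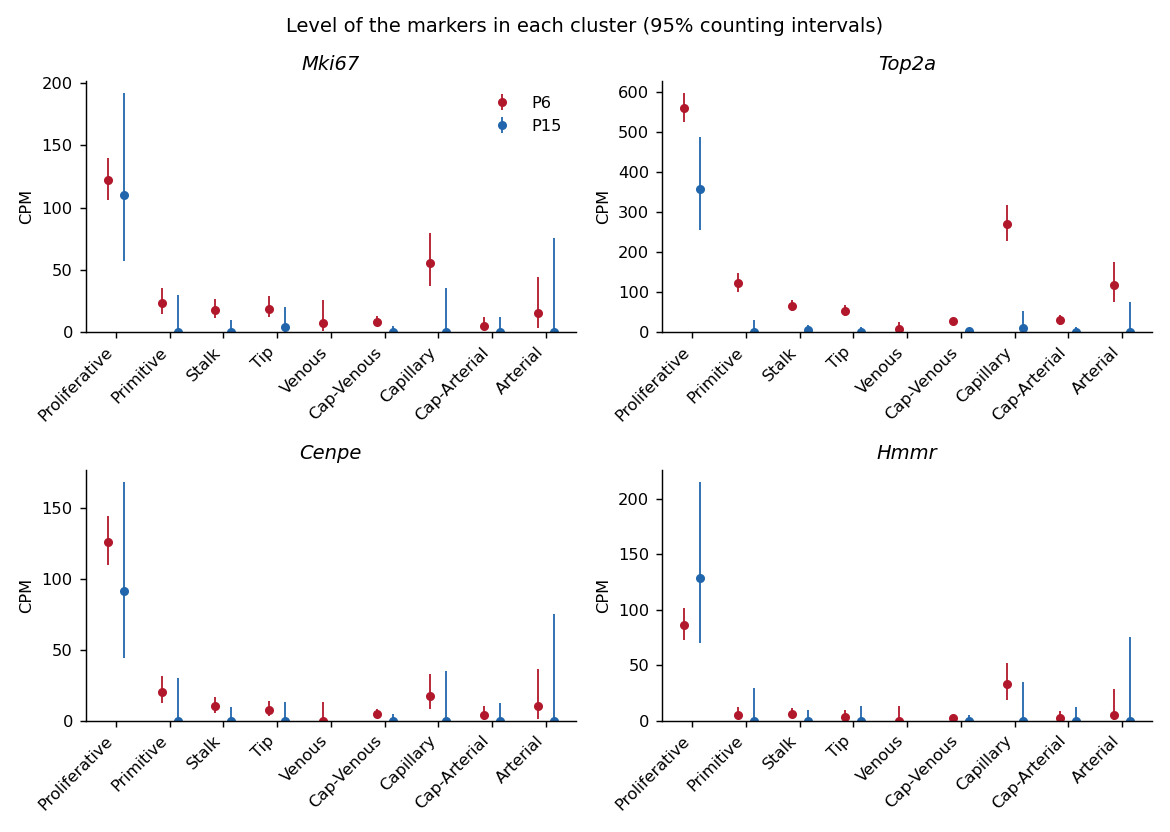
Level of *Mki67*, *Top2a*, *Cenpe* and *Hmmr* in CPM in each labelled cluster, P6 in red and P15 in blue, with 95% Poisson intervals as bars; the 2 P15 Venous cells are not drawn. The Proliferative point is the highest of its age in each panel, and for *Top2a* the P6 Capillary cells come next, at 269.7 CPM against 561 CPM.

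Among the other P6 clusters the markers were unevenly spread. *Top2a* was at 269.7 CPM (227 to 318) in Capillary cells, 122 CPM (101 to 147) in Primitive cells, 116 CPM (73.8 to 175) in Arterial cells and 7.03 CPM (0.851 to 25.4) in Venous cells. Primitive is the cluster called Primordial in the source data. *Mki67* was at 55.5 CPM (37.1 to 79.7) in Capillary cells and 23.4 CPM (14.6 to 35.4) in Primitive cells. The Primitive and Arterial levels of *Top2a* lay within each other's intervals.

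A first question was what share of the labelled cells lay in the cluster at each age. This is not the share of dividing cells, since cells outside the cluster also carried mitotic signal, as given below. At P6 Proliferative cells made up 12.7% of the 1560 labelled cells (11.1 to 14.4). At P15 they made up 3.2% of the 438 cells whose labels are held here (1.76 to 5.3), and the intervals of the ages did not overlap. The P15 labels are held only in part, and age and library cannot be told apart. The P6 share depended on the cells admitted, from 10.2% among cells within the study's exclusion limits, read as numbers of genes, to 15.4% when every barcode with at least 200 genes was given a label by its nearest neighbours.

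Proliferative cells carried more UMIs per barcode than the rest of their library. At P6 they held a median of 7954 UMIs (1979 to 16356) and 2964 genes, against 5092 UMIs and 2162 genes in the other labelled cells. At P15 the medians were 7570 UMIs and 3071 genes, against 4336 UMIs and 2042 genes. Thinned to 3000 UMIs each, P6 Proliferative cells showed a median of 1560 genes and the others 1529. The study excluded cells with RNA counts above 3500 and gave no unit, and 1262 of its 1560 labelled P6 cells exceeded that number in UMIs. Read as genes, the limit was passed by 55 of the 198 P6 cells (27.8%) and by 106 of the 1362 others (7.78%). Mitochondrial UMIs took a median of 1.13% and 1.24%. *Xist* and Y-linked UMIs occurred together, as they may when a droplet holds a female and a male cell, in 1 of the 198 cells and 11 of the 1362 others. *Xist* was detected in 49 and a Y-linked gene in 52 of the 198 cells, and in 230 and 345 of the others. Doublets of 1 sex, or without these UMIs, are missed by this count. The libraries had 7 barcodes in common, 0 of them Proliferative.

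At P6 9834 genes had at least 50 UMIs over the labelled cells, and a ratio of at least 2 or at most 0.5 is called higher or lower below. Of these, 464 (4.72%) were called higher in Proliferative cells and 456 (4.64%) lower, with a median ratio of 0.968 over all of them. In UMIs per cell in place of CPM the median of all genes moved up by 0.532 on the log2 scale, to 1.4, and 1362 genes were then called higher and 172 lower. Ratios of CPM are therefore to be read against the median of 0.968, and a ratio a little under 1 is above 1 in UMIs per cell.

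The 25 largest P6 ratios, taken over genes that reached 50 UMIs within Proliferative cells, included many genes of the kinetochore and the spindle. *Knl1* (13.5), the platform of the outer kinetochore, *Cenpf* (12.2) and the checkpoint kinases *Bub1* (12.2) and *Ttk* (10.6) act where chromosomes meet the spindle. *Kif11* (12.9) is the motor that pushes spindle poles apart, *Kif2c* (12.5) removes tubulin from microtubule ends, and *Dlgap5* (12.5) and *Nusap1* (11) hold spindle fibres together. The largest ratio belonged to *Pif1*, a DNA helicase, at 30.5 CPM against 1.88 CPM, a ratio of 16.2 (8.95 to 31). *Anln* (10.8) and *Cep55* (10.3) act when daughter cells part, *Sgo1* (10.2) guards centromeric cohesion, and *Ccnb1* (10.1) is the cyclin of mitotic entry. *Psrc1*, *Ckap2*, *Cdca2*, *Pimreg* and *Nuf2* had ratios of 10.5 to 12.8.

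Outside the cell cycle lists, the genes with the 15 largest ratios included several known from dividing cells. *Sapcd2* stood at 37 CPM against 2.64 CPM, a ratio of 14.1 (8.44 to 24.3). *Depdc1a* had a ratio of 14 and *Prr11* of 11.2. *Neil3*, a DNA glycosylase, had a ratio of 10.9, and *Esco2*, the acetyltransferase that locks cohesin onto copied chromatids, 8.52. *Melk* (7.82) and *Pbk* (7.67) are kinases of dividing cells, and *Ska1* (7.33) couples kinetochores to microtubules. *Shcbp1*, *Mns1*, *Diaph3*, *Cip2a* and *Mxd3* had ratios of 7.14 to 9.65.

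Genes of DNA copying were higher by smaller ratios. In the S phase list 31 of the 41 genes with 50 UMIs were called higher, against 4.72% of all genes, 0 lower, and the median was 2.62. Summed, the list was at 3553 CPM against 1360 CPM, a ratio of 2.61 (2.53 to 2.7). Among origin licensing and helicase genes 14 of 18 were called higher, *Mcm5* with 144 CPM against 44.3 CPM (3.25) and *Gins3* of the GINS complex with the largest ratio (4.9). Among DNA synthesis genes 12 of 19 were called higher, with *Rfc4*, a clamp loader subunit, at 4.52 and *Pcna*, the sliding clamp, at 2.61.

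All 8 genes of nucleotide supply were called higher. *Rrm2*, the regulated subunit of ribonucleotide reductase, was at 350 CPM against 61.3 CPM, a ratio of 5.71 (5.06 to 6.46). Thymidine kinase *Tk1* had a ratio of 5.41 and thymidylate synthase *Tyms* 3.85. Of the replication histones 8 of 15 had 50 UMIs and 7 were called higher, led by *Hist1h1b* at 8.3 (5.82 to 12), while *Hist1h2bc* had a ratio of 0.999. Most replication histone mRNAs lack a poly(A) tail, so few of them are captured by this method.

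Most lists of mitosis had larger median ratios than the S phase list, mitotic exit apart. In the G2/M list 51 of 53 genes were called higher, 0 lower, and the median was 7.32. Its sum was 11320.4 CPM against 2298 CPM, a ratio of 4.93 (4.83 to 5.03). *Hmgb2*, a chromatin protein, gave 16.9% of its UMIs in Proliferative cells, and without *Hmgb2* the ratio was 4.99. Of mitotic entry genes 12 of 13 were called higher. *Plk1*, the polo kinase, was at 137 CPM against 13.7 CPM, a ratio of 10 (7.92 to 12.7), and *Cdk1*, the kinase that drives entry, at 431 CPM against 97.9 CPM (4.4). *Wee1*, which holds CDK1 back, had a ratio of 1.86 and was the gene of that list not called.

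By machinery, 23 of 24 kinetochore and checkpoint genes were called higher (median 6.1), 22 of 22 spindle and kinesin genes (median 8.77), 16 of 17 condensation and segregation genes (median 5.04) and 7 of 7 cytokinesis genes (median 7.43). *Aurkb*, the Aurora B kinase, was at 152 CPM against 17.2 CPM (8.86), and its partner survivin, *Birc5*, at 459 CPM against 72.8 CPM (6.3). Securin, *Pttg1*, was the gene of the segregation list not called, at 72.9 CPM against 54.4 CPM, a ratio of 1.34 (1.09 to 1.64). These lists share genes, so their counts are not independent, and a gene that is scarce outside the cluster met the limit of 50 UMIs through the cluster itself.

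Among the genes of mitotic exit 3 of 10 were called higher, and the median was 1.74, below that of the S phase list. These were *Cdc20*, the activator of the anaphase-promoting complex, at 319 CPM against 32.4 CPM (9.85), *Fbxo5*, its inhibitor (8.47), and *Ube2c*, its conjugating enzyme (6.7). The other 7, subunits of the complex among them, ranged down to 0.922 for *Cdc26*.

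Cyclins separated by phase. *Ccna2*, the cyclin of S and G2, was at 226 CPM against 25.4 CPM, a ratio of 8.9 (7.49 to 10.6). *Ccne1*, the cyclin of the passage from G1 to S, had a ratio of 4.2 (3.13 to 5.63) and *Ccne2* 2.83. The D cyclins act in G1. *Ccnd1* was at 100.3 CPM against 88.4 CPM, a ratio of 1.14 (0.954 to 1.34), and its interval held 1. *Ccnd2* was at 13.7 CPM against 70.8 CPM, a ratio of 0.194 (0.122 to 0.294), and was also lower in UMIs per cell, with 0.116 against 0.414. The repressor *E2f8* had a ratio of 12.1 (6.48 to 23.6) from 38 UMIs in the cluster, and the activator *E2f1* 2.21. In this list 9 of 16 genes were called higher and 1 lower.

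CDK inhibitors were divided. *Cdkn2c* (p18) was at 89.6 CPM against 20.7 CPM, a ratio of 4.33 (3.44 to 5.43), and *Cdkn2d* (p19) at 75.8 CPM against 28.1 CPM, a ratio of 2.7 (2.15 to 3.37). *Cdkn1c* (p57) was at 10.2 CPM against 40.5 CPM, a ratio of 0.25 (0.144 to 0.407), and was lower in UMIs per cell too, with 0.0859 against 0.237. *Cdkn1a* (p21) had a CPM ratio of 0.698 (0.598 to 0.81) but 1.0 against 0.996 UMIs per cell, and *Cdkn1b* (p27) a CPM ratio of 0.791 (0.597 to 1.03) but 0.323 against 0.283 UMIs per cell. Summed, the inhibitors were at 339 CPM against 317 CPM, a ratio of 1.07 (0.974 to 1.17).

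Against all other labelled cells, the sums of growth restraint genes stood below 1 in CPM. Against Primitive cells the quiescence list was at 1.71 (1.55 to 1.89) and the p53 targets at 1.23 (1.11 to 1.36). The median of all genes in that comparison was 1.19. Of the quiescence list 3 of 13 genes were called lower and 0 higher, and its sum had a ratio of 0.662 in CPM and 0.957 in UMIs per cell. The genes called were *Pik3ip1*, which restrains PI3 kinase (0.351), and the antiproliferative *Tob1* (0.379) and *Btg2* (0.434). Of p53 targets 3 of 10 were called lower and 0 higher, led by *Trp53inp1* (0.21), with a summed ratio of 0.70 that came to 1.01 in UMIs per cell. Of immediate early genes, which respond within minutes to stimulation or handling, 4 of 13 were called lower, *Egr1* (0.36), *Zfp36* (0.406), *Fos* (0.426) and *Ier3* (0.453), while *Myc* stood at 43 CPM against 31.5 CPM, a ratio of 1.36 (1.03 to 1.78).

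Detection of endothelial identity genes in Proliferative cells ranged from few cells to nearly all. *Pecam1*, the CD31 of the sort, was detected in 93.4% of the P6 Proliferative cells and 90.5% of the other cells, VE-cadherin *Cdh5* in 92.9% and 90.9%, and *Flt1*, a VEGF receptor, in 93.4% and 90%, at median depths of 7954 and 5092 UMIs. The transcription factor *Erg*, of the same list, was detected in 31.3% and 26.3%. By CPM 0 of the 16 pan-endothelial genes were called. Their ratios ran from 0.639 for *Sox18* to 0.95 for *Tek*, and their sum had a ratio of 0.754 (0.743 to 0.766), which turned to 1.09 in UMIs per cell, where 14 of the 16 genes were above 1. *Cldn5*, a tight junction claudin, gave 34.4% of those UMIs, and without it the CPM ratio was 0.812.

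The venous list summed to 17515 CPM against 17818 CPM, a ratio of 0.983 (0.971 to 0.996) that turned to 1.42 in UMIs per cell. *Tmsb10* gave 83.3% of its UMIs, and without it the CPM ratio was 0.827. *Nr2f2*, the venous transcription factor COUP-TFII, was at 98.5 CPM against 73.8 CPM, a ratio of 1.33 (1.12 to 1.59), and *Apoe*, of the same list, at 118 CPM against 315 CPM (0.376).

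The arterial list summed to 2382 CPM against 3025 CPM, a ratio of 0.787 (0.761 to 0.814), which turned to 1.14 in UMIs per cell. Its members were far apart. *Bmx*, a kinase of arterial endothelium, had 0 UMIs in the 198 cells against 165 in the others, a ratio of at most 0.0865 when the 0 is bounded by 3 counts. *Gja5*, connexin 40, had 1 UMI against 53, a ratio of 0.0898 (0.00223 to 0.522). *Hey1*, a Notch target, had 6 against 345, a ratio of 0.0828 (0.0302 to 0.182). These 3 were lower in UMIs per cell as well. *Fbln1* (1.9, 1.57 to 2.29) and *Crip1* (1.28, 1.17 to 1.4) of the same list were above 1. In all, 5 of 14 arterial genes were called lower and 0 higher, against 4.64% of all genes called lower.

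By cluster, the arterial sum of Proliferative cells (2382 CPM, 2308 to 2457) lay nearest to those of Cap-Venous (2274 CPM, 2217 to 2332) and Primitive cells (2178 CPM, 2085 to 2274) and below that of Cap-Arterial (5585 CPM) and Arterial cells (10417 CPM). Their venous sum (17515 CPM) lay below that of Primitive cells (21781 CPM) and above that of Arterial cells (5421 CPM). In Proliferative cells *Tmsb10* gave 83.3% of the venous UMIs and *Sat1* 47.9% of the arterial UMIs, so each sum leaned on 1 gene. Sums by cluster without these genes are not given here. The capillary list had a CPM ratio of 0.773 (0.757 to 0.79) and turned to 1.12 in UMIs per cell.

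The tip list, of genes known from cells that lead a sprout, was at 4681 CPM against 4870 CPM, a ratio of 0.961 (0.938 to 0.985) that turned to 1.39 in UMIs per cell. Tip cells held it at 7530 CPM. *Apln*, the ligand apelin, was at 257 CPM against 194 CPM, a ratio of 1.33 (1.19 to 1.48). The chemokine receptor *Cxcr4* (0.236), the ligand *Angpt2* (0.345) and the netrin receptor *Unc5b* (0.354) were called lower, 3 of 19 genes in all.

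The sums of Notch pathway and barrier genes were below 1 in CPM and slightly above 1 in UMIs per cell. In the Notch list 2 of 11 genes were called lower and 0 higher, and the summed ratio was 0.729 (0.69 to 0.77), against 1.05 in UMIs per cell. Among Wnt targets and barrier genes 3 of 20 were called lower and 0 higher, with a summed ratio of 0.701 (0.689 to 0.713), against 1.01 in UMIs per cell. *Slco1a4*, an organic anion carrier, was at 12.5 CPM against 37.8 CPM (0.332). The lists of VEGF and angiopoietin receptors and of BMP genes held 0 genes called, at summed ratios of 0.806 and 0.894 (1.17 and 1.29 in UMIs per cell). The TGF list held 1 of 7 called lower, *Tgfb2* (0.427).

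Taken over genes that reached 200 UMIs in the other P6 cells, the 10 smallest ratios belonged to *Stmn2*, *Nebl*, *Cxcl12*, *Aqp1*, *Cd24a*, *Hey1*, *Tcp11l2*, *Depp1*, *Mgp* and *Wfdc1*. *Cxcl12*, a chemokine of arterial endothelium, had 5 UMIs in Proliferative cells and 792 in the others, a ratio of 0.030 (0.00973 to 0.0704). *Aqp1*, a water channel, had 3 against 287, and *Mgp*, the matrix Gla protein, 9 against 392. *Stmn2*, a neuronal gene, had 1 UMI against 438.

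Supply genes differed by pathway. In the serine, glycine and one-carbon list 6 of 12 genes were called higher, with *Psat1* at 77 CPM against 25.9 CPM, a ratio of 2.98 (2.37 to 3.73) and *Phgdh* at 52 CPM against 19.3 CPM (2.69), both enzymes of serine synthesis. In the nuclear pore and import list 8 of 12 were called higher, led by importin *Kpna2* (5.25), and *Lmnb1*, the B-type lamin, had a ratio of 3.55. Of the tubulins 5 of 9 were called higher, led by *Tuba1c* (3.94). No gene was called in glycolysis (13 genes), oxidative phosphorylation (28), splicing (13) or the chaperonin and proteasome (18), whose summed ratios were 1.18, 1.04, 1.42 and 1.15. For glycolysis the median ratio was 0.933, on the other side of 1 from the sum, while 12 of the 13 genes were above 1 in UMIs per cell.

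Primitive cells held the highest G2/M sum of the other P6 clusters, 5072 CPM against 11320.4 CPM in Proliferative cells. Between these clusters 5792 genes had 50 UMIs, of which 809 (14.0%) were called higher in Proliferative cells and 13 (0.224%) lower, with a median of 1.19. Primitive cells had a median of 1893 genes and a ribosomal share of 25.2%, against 2964 genes and 18.8%, and the part of this in the ratios was not tested. In the G2/M list 40 of 53 genes were called higher (median 3.22), and in the S phase list 7 of 37 (median 1.45). *Hmmr* was at 86 CPM against 5.31 CPM, a ratio of 16.2 (6.78 to 50.6), and *Top2a* had a ratio of 4.6. *Ccnd2*, low against all other cells, had a ratio of 0.995 to Primitive cells. The pan-endothelial sum was higher in Proliferative cells, at 1.29 (1.26 to 1.33), and that of oxidative phosphorylation lower, at 0.77 (0.754 to 0.786).

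The 4 genes with larger ratios to Primitive cells than *Hmmr* were *Gm37474* (20.5), *Gm44187* (19.4), *C530043K16Rik* (17.7) and *Gm42047* (16.9). The annotation calls the last a lincRNA and gives the others the type TEC, its class for transcripts that await a test by experiment. Against all other cells their ratios were 1.09, 1.14, 0.538 and 3.4. The 5 smallest ratios to Primitive cells were those of *Gm10132* (0.349), *Uchl1* (0.389), *Gchfr* (0.414), *Kcne3* (0.427) and *Lgals1* (0.427).

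Cell by cell, the G2/M list took a median of 1.11% of the UMIs of a P6 Proliferative cell (0.326 to 3.03%), against 0.428% in Primitive cells and 0.129% in all other labelled cells. The S phase list took 0.288% (0 to 0.925%), 0.204% and 0.0816%. At least 2 of the 4 markers were detected in 80.3% of Proliferative cells and 6.68% of the others, and none in 6 of the 198. Thinned to 3000 UMIs, which left out 3 Proliferative cells, a marker UMI was found in 84.1% (78.2 to 88.9) of them. At that depth the share was 35.2% (25.4 to 45.9) in Capillary cells, from which 58 shallower cells were left out, 32.9% (25.6 to 40.9) in Primitive cells and 6.77% (3.14 to 12.5) in Cap-Arterial cells. It was 0 of 37 in Venous cells, with an upper limit of 9.49%.

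The cluster did not hold all mitotic signal. Proliferative cells carried 50.9% (50.4 to 51.4) of the G2/M list UMIs of the labelled P6 cells and 35.4% (34.7 to 36.2) of the S phase list UMIs, with 17.4% of all UMIs. Primitive cells carried 12.8% of the G2/M list UMIs with 9.77% of all UMIs. Outside the cluster 187 of 1362 cells had a G2/M share at or above that of the lowest twentieth of Proliferative cells, 82 of them Primitive, 36 Stalk and 31 Capillary cells. At or above the Proliferative median were 39, 19 of them Primitive and 13 Capillary.

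Among the 198 P6 Proliferative cells the S and G2/M shares ran against each other, with a Spearman rho of −0.478 over cells of 1 library. Over the 1362 other P6 cells rho was 0.442. Between UMI number and share rho was 0.0938 for the S phase list and −0.263 for the G2/M list. These are descriptions of cells that share a library.

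**Figure D2:**
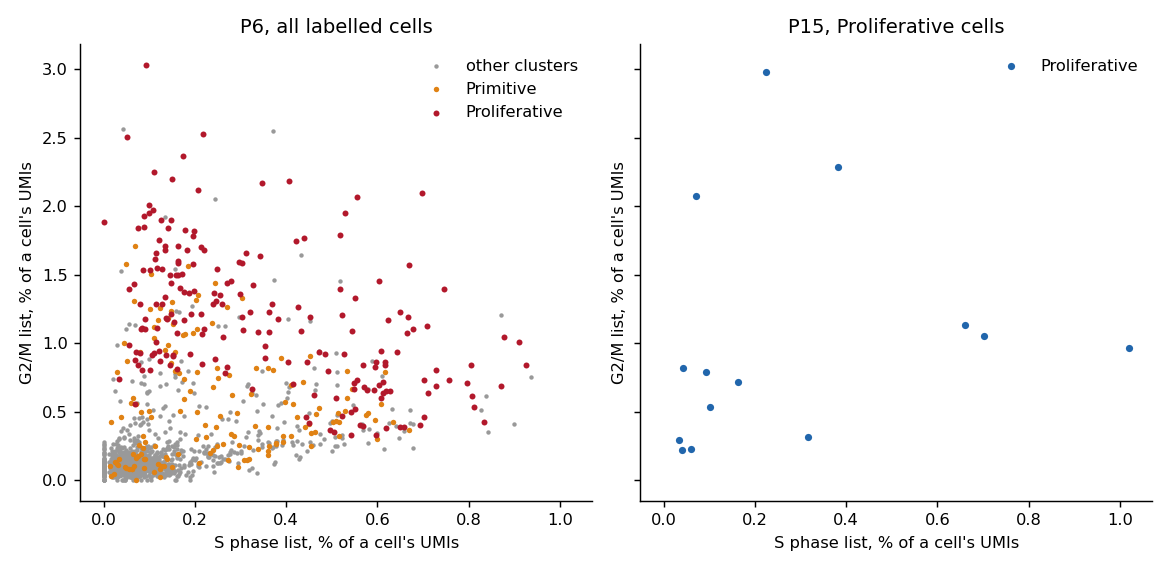
Each point is 1 cell, placed by the percent of its UMIs in the S phase list and in the G2/M list, for the labelled P6 cells (left; Proliferative red, Primitive orange, other clusters grey) and the 14 P15 Proliferative cells (right). P6 Proliferative cells spread from high S and low G2/M shares to low S and high G2/M shares (rho −0.478), and most cells of other clusters lie near the origin.

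To see how other genes lay along this spread, the 198 cells were ordered by the G2/M part of their S and G2/M list UMIs and divided into 3 ranges of 66 cells. The ranges ran from 33.6 to 67.0%, from 68.1 to 88.9% and from 88.9 to 100%. Of the cells, 19 lay within 5 points of the lower border and 77 within 5 points of the upper one, so these are ranges of a continuum and not types. Median UMIs were 9237, 7598 and 6620 from the S side to the G2/M side. As a description of the order, the S phase list was at 6068, 2978 and 1235 CPM and the G2/M list at 6869, 12657 and 15082 CPM.

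Among genes that the order did not use, several of the 12 with the smallest ratios of the G2/M side to the S side are known to act around the start of DNA copying or in it. *Ccne1* had 72, 18 and 0 UMIs in the 3 ranges. *Cdt1*, the licensing factor destroyed once S phase begins, went from 101 to 9.07 to 3.85 CPM, and *E2f1* from 77.8 to 18.1 to 5.78 CPM. *Dut*, the enzyme that clears dUTP, went from 397 to 185 to 69.4 CPM, and *Lig1*, the ligase of Okazaki fragments, from 334 to 167 to 40.5 CPM. *Hist1h1b* stood at 71.2, 70.7 and 13.5 CPM, level over the first 2 ranges. *Slfn9*, *Pold1*, *Tcf19*, *Skp2* and *Gpr180* were also among the 12 smallest ratios, at 0.0171, 0.129, 0.135, 0.16 and 0.172.

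On the other side *Cdkn3*, a phosphatase of CDKs, went from 13.2 to 49 to 144 CPM, a ratio of 10.9 (5.26 to 26.2). *Sapcd2* went from 9.93 to 21.8 to 84.8 CPM, *Knstrn*, a kinetochore and spindle protein, from 31.4 to 149 to 226 CPM and *Ccnb1* from 69.5 to 238 to 337 CPM. *Plk1* was at 64.6, 172 and 183 CPM and *Ccna2* at 137, 265 and 287 CPM, both with most of the difference before the middle range. *Arl6ip1*, an endoplasmic reticulum shaping protein, went from 326 to 738 to 1068 CPM. *Tuba1c*, *Cep55*, *Ubtd1*, *Akirin2*, *Reep4*, *Bub1b* and *Emp1* made up the 12 largest, at ratios of 2.96 to 5.66.

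The cluster's own markers, which are in the G2/M list and so had a part in the order, differed among themselves. *Top2a* was at 551, 667 and 461 CPM and *Mki67* at 91, 154 and 123 CPM, highest in the middle range. *Cenpe* was at 39.7, 132 and 219.7 CPM and *Hmmr* at 46.4, 81.6 and 137 CPM.

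**Figure D3:**
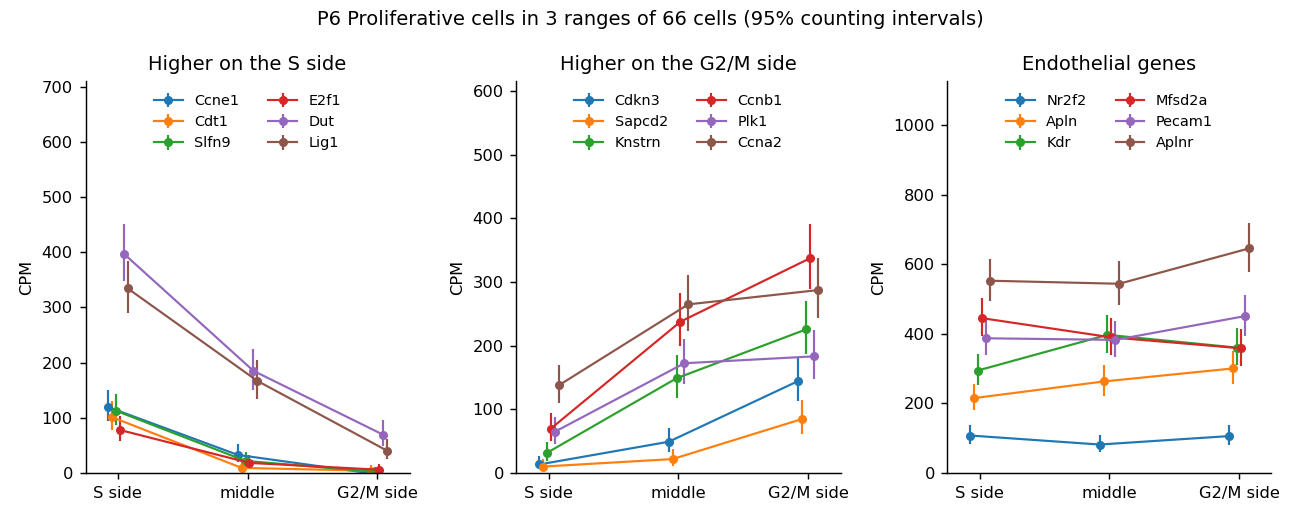
Level in CPM over the 3 ranges of 66 P6 Proliferative cells, from the S side to the G2/M side, of genes that the order did not use, with 95% Poisson intervals as bars. *Lig1* goes from 334 to 167 to 40.5 CPM and *Ccnb1* from 69.5 to 238 to 337 CPM.

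Sums of endothelial lists differed little along the order, while single venous genes differed more. The ratio of the G2/M side to the S side was 1.06 (1.02 to 1.1) for the pan-endothelial list, 1.1 (1.07 to 1.13) for the venous, 1.05 (0.976 to 1.14) for the arterial, 1.01 (0.957 to 1.07) for the tip and 0.981 (0.933 to 1.03) for the capillary list. *Tmsb10* gave most of the venous UMIs, 8480 of 10334 on the S side, and had a ratio of 1.14 (1.1 to 1.17). Of the same list *Slc38a5* (0.641, 0.542 to 0.757), *Apoe* (0.595, 0.408 to 0.858) and *Bgn* (0.733, 0.618 to 0.868) were lower on the G2/M side. *Ctla2a* (1.16, 1.001 to 1.35) and *Aplnr* (1.17, 1.001 to 1.36) were higher. The Notch list had a ratio of 1.24 (1.09 to 1.41). *Apln* went from 215 to 263 to 301 CPM, a ratio of 1.4 (1.1 to 1.78). The one-carbon list was at 791, 533 and 382 CPM, with *Mthfd2*, a mitochondrial folate enzyme, going from 59.6 to 29 to 13.5 CPM. *Fos* went from 54.6 to 32.6 to 7.71 CPM, while the quiescence list was at 950.1, 983 and 944 CPM.

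At P15 the 14 cells gave 109125 UMIs in all, 5.10% of those of the labelled P15 cells, so a gene at the limit of 50 UMIs had few in them. Of 5833 genes 316 (5.42%) were called higher and 962 (16.5%) lower, with a median of 0.926. In UMIs per cell the median moved up by 0.702 on the log2 scale, and 1569 genes were called higher and 406 lower. The G2/M list summed to 9833 CPM against 838 CPM, a ratio of 11.7 (10.8 to 12.7), and the S phase list to 3006 CPM against 627 CPM, a ratio of 4.8 (4.24 to 5.42). With 50 UMIs, 13 of 15 G2/M genes and 7 of 12 S phase genes were called higher.

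Among the 14 the G2/M share of a cell ran from 0.223% to 2.98%, with a median of 0.805%. Of the 424 other P15 cells the median was 0.0769% and the highest 0.338%, so 10 of the 14 lay above all others and 4 within their range. The S share ran from 0.0333% to 1.02%. No marker was detected in 4 of the 14, and all 4 markers in another 4. Of the 4 cells within the range of the others, 3 held 3756, 3794 and 4034 genes, above 3500. Spearman rho of S and G2/M shares over the 14 was 0.578, of the opposite sign to P6, and the difference was not tested. With P15 cells of predicted label and up to 3500 genes added, rho was −0.01595 over 40 cells.

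By gene, *Birc5* had 43 UMIs in the 14 cells and 7 in the 424 others, *Cenpa*, the centromeric histone, 38 and 17, and *Tk1* 34 and 16. *Cdkn2d* had 18 and 95, a ratio of 3.53 (2.0 to 5.88). The 10 largest ratios, over genes that reached 10 UMIs in the 14 cells, were those of *Spc24*, *Hmmr*, *Knl1*, *Cdca3*, *Asf1b*, *Nuf2*, *Cenpe*, *Pclaf*, *Pimreg* and *Pbk*, the first 7 with 0 UMIs in the other cells. *Spc24*, an outer kinetochore subunit with 18 UMIs, was at least 112-fold higher on the bound of 3 counts. *Pclaf*, a partner of PCNA, had 58 UMIs against 1, a ratio of 1080 with an interval of 186 to 43364.

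In the 14 cells *Pecam1* had 40 UMIs and *Cdh5* 51. Of the 16 pan-endothelial genes 2 were called lower, against 16.5% of all 5833 genes at P15. These were *Erg*, at a ratio of 0.312 (0.0637 to 0.926) from 3 UMIs, and *Emcn*, endomucin, at 0.494 (0.324 to 0.723). Of the 16 genes, 9 had intervals below 1. The pan-endothelial sum had a CPM ratio of 0.766 (0.73 to 0.804) and 1.25 in UMIs per cell. The tip list had a ratio of 0.67 (0.598 to 0.748), which turned to 1.09 in UMIs per cell, and the arterial list 0.808 (0.707 to 0.921), which turned to 1.31. Of the arterial genes 4 of 11 were above 1 in UMIs per cell. *Crip1* gave 29.5% of the arterial UMIs, and without it the CPM ratio was 0.608 (0.518 to 0.709). The capillary list was at 0.569 (0.524 to 0.615) and at 0.925 in UMIs per cell, where 3 of its 5 genes were above 1. *Sparc* gave 77.7% of the capillary UMIs, and without it the CPM ratio was 0.661 (0.555 to 0.782). The venous list was at 1.2 (1.14 to 1.26). *Tmsb10* gave 76.2% of its UMIs, and without it the ratio turned to 0.813 (0.736 to 0.896). *Aplnr*, the apelin receptor, had a ratio of 1.31 (1.06 to 1.61) at P15 and 0.88 (0.821 to 0.942) at P6, where it turned above 1 in UMIs per cell, with 4.89 against 3.85.

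Between ages the cycle lists of Proliferative cells had ratios of P15 to P6 on both sides of 1. The G2/M list was at 11320.4 CPM at P6 and 9833 CPM at P15, a ratio of P15 to P6 of 0.869 (0.816 to 0.924), and the S phase list at 3553 and 3006 CPM, a ratio of 0.846 (0.755 to 0.946). The ratio was 0.683 (0.552 to 0.837) for origin licensing, 0.768 (0.601 to 0.968) for the 4 markers, 0.777 (0.654 to 0.917) for nucleotide supply and 1.26 (1.14 to 1.4) for the spindle list. In the other labelled cells the G2/M ratio was 0.365 (0.347 to 0.384), and that of the 4 markers 0.0307 (0.0112 to 0.0671). Age and library cannot be told apart in any of these.

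Several other lists had much the same ratio of P15 to P6 in Proliferative cells, 14 of them at P15, as in the rest. Summed CDK inhibitors went from 339 to 852 CPM in Proliferative cells, a ratio of 2.52 (2.0 to 3.14), and had a ratio of 2.5 (2.35 to 2.67) in the others. The quiescence list had ratios of 2.53 and 2.48, p53 targets 2.37 and 2.13, Wnt targets and barrier genes 1.87 and 1.9, and the pan-endothelial list 1.44 and 1.42. In Proliferative cells *Klf2* gave 60.75% of the quiescence UMIs at P15 and 39.66% at P6. *Cdkn1a* gave 51.61% and 35.1% of the CDK inhibitor UMIs. Ratios between ages without these genes are not given here. The tip list had ratios of 0.636 (0.568 to 0.711) in Proliferative and 0.913 (0.892 to 0.934) in other cells, the capillary list 0.998 (0.92 to 1.08) and 1.36 (1.34 to 1.38), and immediate early genes 3.75 (3.31 to 4.25) and 3.1 (3.0 to 3.2), and the intervals did not meet. The same held for the venous list, at 0.927 (0.883 to 0.973) and 0.759 (0.75 to 0.769), nuclear pore and import, at 0.761 (0.67 to 0.861) and 0.562 (0.533 to 0.591), splicing, at 0.836 and 0.654, and nuclear OXPHOS, at 0.958 and 0.852. Of all 41 lists 18 had intervals that did not meet, 11 of them among the 17 lists of the cell cycle. Lists share genes, so these are not separate differences, and the intervals do not cover the spread between cells or animals.

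Markers of most other cell types were scarce in the P6 cluster, and glial and red cell markers were higher at P15. In the 1674416 UMIs of the P6 Proliferative cells the 10 pericyte and mural markers had 34 UMIs, of which *Myl9* gave 29 and *Rgs5* 2. Photoreceptor markers had 26 UMIs, retinal progenitor markers 6, red cell markers 34 and microglia and leukocyte markers 0. The Mueller glia and astrocyte markers had 204 UMIs, of which *Glul*, glutamine synthetase, gave 190, and their sum was at 122 CPM, a ratio of 0.312 (0.269 to 0.359) to the other cells. At P15 the 14 cells held 12 pericyte, 7 photoreceptor, 47 glial, 20 red cell and 1 leukocyte marker UMIs. In CPM the glial sum was then 431, the red cell sum 183 and the pericyte sum 110, against 1179, 176 and 252 in the other P15 cells, and their part in the P15 results was not tested.

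Many P6 barcodes without a label were called Proliferative, mostly ones with many genes. Labels were predicted from the 15 nearest labelled cells, over principal components in which every labelled cell took part. With no cell allowed as its own neighbour, 192 of 212 Proliferative labels (90.6%) were given back, and 192 of 244 Proliferative calls (78.7%) were right. That check covered labelled cells alone, at P6 none of them beyond 4250 genes. Of the 424 unlabelled P6 barcodes 107 (25.2%) were called Proliferative. Of the 168 with more than 3500 genes 75 were (44.6%, 37 to 52.5), against 55 of 161 labelled cells of that kind (34.2%, 26.9 to 42). Up to 3500 genes the shares were 12.5% of 256 unlabelled and 10.2% of 1399 labelled barcodes. *Xist* and Y-linked UMIs occurred together in 12 of the 168 and in 4 of the 75. In the called barcodes the G2/M list took a median of 1.11% of UMIs. The calls were made from the same counts, so this share describes them and is no check of them. At P15 34 of 1703 barcodes without a label here (2.0%) were so called. As the P15 labels are held only in part, these include cells that the study labelled, so the ages are not alike in this.

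**Figure D4:**
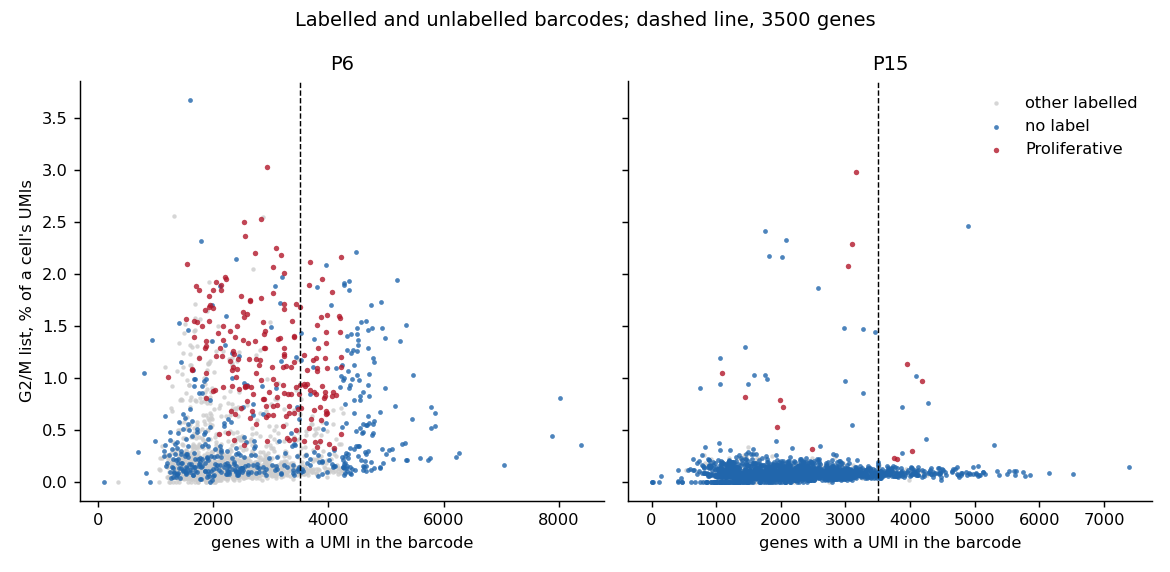
Each point is 1 barcode, placed by its number of detected genes and by the percent of its UMIs in the G2/M list, for P6 (left) and P15 (right), with Proliferative cells, other labelled cells and barcodes without a label in separate colours and a line at 3500 genes dashed. At P6 many unlabelled barcodes beyond 4250 genes, the highest number in a labelled P6 cell, have G2/M shares in the range of the Proliferative cells. At P15 most unlabelled barcodes lie near 0, and they include cells that the study labelled, since P15 labels are held only in part.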

How the data were processed

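The authors deposited 1 table of UMI counts per library, genes by barcodes, made before deposit by their read processing. The submitters' processing notes name the mm10 build and Seurat 3.0, and the aligner is not given in the sources used here. Gene IDs were matched to symbols without version numbers. The label of each cell was read from source data of the study that are held only in part for P15. UMIs were summed over the cells of a group in Python 3.11.15 (numpy 2.4.6, scipy 1.17.1, pandas 2.3.3), and ratios of CPM were given for genes with at least 50 UMIs over the cells compared. Intervals at 95% were exact Poisson intervals for levels, exact conditional binomial intervals for ratios and Clopper-Pearson intervals for shares, checked on simulated counts. Counting intervals and bounds of 3 counts cover counting error only. Labels of other barcodes were predicted from the 15 nearest labelled cells over 13 principal components. No doublet caller was run, and barcodes in which *Xist* occurred together with Y-linked genes were counted instead. No cell was filtered beyond its label. Some genes that the naming rule chose are not reported here.

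The genes named are the members of 41 lists that carry a description, the 25 and 15 largest P6 ratios, the 10 smallest P6 ratios, the 10 largest P15 ratios, and the 5 largest and 5 smallest ratios to Primitive cells. The members and the lists were chosen with earlier results of these data known. The alternatives tried were UMIs per cell, thinning to 3000 UMIs, equal weight per cell, a reference without Primitive cells, other UMI minimums and other sets of cells.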

Additional observations from a re-analysis of the deposited data

Results flagged for a closer look

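Several values stood out in barcodes that the study gave no label. Of 424 such P6 barcodes 25.24% (21.2 to 29.7) were called Proliferative from their nearest neighbours, and of the 168 with more than 3500 genes 44.64% were. Of the 130 with more genes than any labelled P6 cell 47.69% were so called (38.9 to 56.6). Of the 92 beyond 3500 genes with a mitochondrial share within 5% and *Hbb-bt*, *Neurod1* and *Cd63* all undetected, the share was 60.87% (50.1 to 70.9). Of the 161 labelled P6 cells beyond 3500 genes 34.2% (26.9 to 42) were Proliferative, and up to 3500 genes the shares were 12.5% of unlabelled and 10.2% of labelled barcodes.

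The *Aplnr* ratio of Proliferative to other cells was 1.313 at P15 and 0.880 at P6, with counting intervals on opposite sides of 1, and the difference was not tested. This was so in CPM, while in UMIs per cell *Aplnr* was higher in Proliferative cells at both ages, at 4.89 against 3.85 at P6 and 7.21 against 3.38 at P15. Spearman rho of S and G2/M shares among Proliferative cells was 0.578 over the 14 cells at P15 and −0.478 over the 198 cells at P6, a difference that was not tested either. With predicted P15 cells rho was −0.01595 over 40 cells.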

How the results depend on the processing

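The P6 share of 12.69% was 10.22% among cells within the exclusion limits, read as numbers of genes,, 10.58% with predicted labels for barcodes of 200 to 3500 genes and 15.38% without an upper limit, while all 4 P15 alternatives stayed inside the interval of the P15 share. In UMIs per cell 1362 genes were called higher and 172 lower at P6, 88.8% of the calls higher against 50.4% by CPM, and 1569 and 406 at P15, 79.4% against 24.7%. At P6 a minimum of 20 UMIs gave 891 called lower, 100 UMIs gave 258, and no minimum gave 1856 higher and 1158 lower. At P15 a minimum of 20 UMIs gave 700 higher and 1791 lower, 100 UMIs gave 130 and 438, no minimum gave 1852 higher, and predicted P15 cells, an alternative chosen after seeing the data, gave 593 and 1683. The list medians in UMIs per cell were 3.79 for S phase and 10.58 for G2/M at P6 and 9.104 for G2/M at P15, and 12.28 for P15 G2/M with predicted cells. The summed venous, arterial, capillary and tip ratios turned in UMIs per cell to 1.421, 1.138, 1.118 and 1.39 at P6, and at P15 they were 1.952, 1.315, 0.9252 and 1.09. At P6 the venous ratio was 1.005 after thinning, 1.013 as the mean of each cell's CPM and 1.013 without Primitive cells, with arterial at 0.7601 and 0.7588, capillary at 0.7469 and 0.7314 for the last 2, and tip at 0.932 without Primitive cells. The P15 tip ratio was 0.5756 after thinning. The share of G2/M UMIs in the cluster was 43.14% with equal weight per cell and 45.31% after thinning at P6, and 29.05% and 32.11% at P15. With the S phase list in place of the G2/M list, and no other change, the shares were 35.44% at P6 and 20.49% at P15. At P6 the Spearman rho was −0.4436 after thinning, −0.4884 as Pearson r of log values and −0.4123 without *Hmgb2*, *Pcna* and *Tubb4b*. At P15 it was 0.4634, 0.4328 and 0.5297, and −0.01595 over 40 cells with predicted ones, where the cause was not tested. Of the 209 list genes called at P6, 194 were still past 2-fold in UMIs per cell and 192 after thinning, with 0 reversed. Of 95 at P15, 66 and 81 were, with *Ncaph* and *Psmd14* reversed after thinning. With predicted P15 cells 64 of the 95 were, and *Ncaph* was reversed. No paired analysis was possible because each age is 1 library, so that no replicate could be paired or left out.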
